A study of Mus musculus with 72 samples.

Results

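The genes described here are 27 genes of cholesterol synthesis and handling, taken by name from a list that follows the pathway from acetyl-CoA to stored cholesterol ester. All 27 were found among the 27846 genes of the count table, and all 27 were among the 15066 genes that had enough counts to be tested. The first 20 are enzymes: 5 of the mevalonate steps (Acat2, Hmgcs1, Mvk, Pmvk, Mvd), 3 of the isoprenoid steps (Idi1, Fdps, Ggps1), 3 that make squalene and lanosterol (Fdft1, Sqle, Lss) and 9 that turn lanosterol into cholesterol (Cyp51, Tm7sf2, Lbr, Msmo1, Nsdhl, Hsd17b7, Ebp, Sc5d, Dhcr7). The other 7 (Stard4, Mylip, Tmem97, Rdh11, Npc1, Npc2, Soat2) act in uptake, transport or esterification, or, in the case of Rdh11, a retinol dehydrogenase, are known as a gene that is switched on together with the enzymes.

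The mice, females and males of strain C57bl6 with the wild type genotype, were between 8 and 16 weeks of age, and whole livers were taken from them in a study of how females and males respond to long-lasting misalignment of the body clock. Each sex had a control and a misaligned group, and each of these was sampled at 6 clock times (0, 4, 8, 12, 16 and 20 h on the labels), with 3 livers in each of the 24 groups and 72 livers in all. Every mouse, control or misaligned, was moved from chow to a diet with 42% of its calories from fat when the schedule started, had food at will and was housed in 12 h of light and 12 h of darkness, so all values here are those of livers on a high-fat diet. The labels do not describe the misalignment schedule, nor which clock times were in the light. They call the 3 livers of a group biological replicates, and nothing in them mentions pooling.

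Liver cells make cholesterol through a chain of enzymes that ends in the endoplasmic reticulum, and they also take it up with lipoprotein particles. When sterols in the endoplasmic reticulum run low, the transcription factor SREBP-2 (gene Srebf2) is carried by its escort Scap to the Golgi and cut free, and it switches on nearly all enzymes of the chain at once. Sterols stop this by way of Insig proteins, which hold Scap back. Hepatic cholesterol synthesis is known to follow feeding and the time of day in rodents.

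SREBP acts at the start of its target genes through the sterol regulatory element, usually beside a CCAAT box bound by NF-Y. The sequence in the 250 bases before the annotated start was therefore read for the members with a RefSeq window on the build GRCm38.p6, which were 21 of 27. It was searched on both strands for the sterol regulatory element (TCACNCCAC), the CCAAT box, the Sp1 box (GGGCGG), the E-box of clock factors (CACGTG) and the D-box (TTATGTAA). No motif contains another. The CCAAT box was found in 20 of 21 member genes, in 20 of their 25 windows, against 33.8% of all 32851 windows and 35.1% of the 13715 windows of tested genes. The Sp1 box was found in 18 of 21 genes and in 19 of 25 windows, against 54.2% of the windows of tested genes. The sterol regulatory element in this strict spelling was found only in Hmgcs1, and in 1.05% of all windows. The E-box was found in Hsd17b7, Sc5d, Dhcr7 and Rdh11, in 4 of 25 windows against 8.04% of the windows of tested genes, and the D-box in 0 of the members and 0.54% of those windows. A match is a run of letters and not a measured binding site, and its absence says only that these letters are not in the window.

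The promoters of 5 members are given here, read 5′ to 3′ on the strand of the gene. Capitals mark the sterol regulatory element and the CCAAT boxes alone, with ATTGG being CCAAT on the opposite strand. Hmgcs1 (HMG-CoA synthase, chr13:119690101-119690340, plus strand) was chosen because it holds the sterol regulatory element, TCACCCCAC, which starts 137 bases before the gene start between CCAAT boxes. Idi1 (isopentenyl diphosphate isomerase, chr13:8885531-8885605, plus strand), Cyp51 (lanosterol demethylase, chr5:4104698-4104756, minus strand), Nsdhl (a sterol dehydrogenase that helps to remove methyl groups, chrX:72918382-72918520, plus strand) and Rdh11 (chr12:79190999-79191063, minus strand) were chosen, after their values were seen, from the members that moved most closely together.
Hmgcs1: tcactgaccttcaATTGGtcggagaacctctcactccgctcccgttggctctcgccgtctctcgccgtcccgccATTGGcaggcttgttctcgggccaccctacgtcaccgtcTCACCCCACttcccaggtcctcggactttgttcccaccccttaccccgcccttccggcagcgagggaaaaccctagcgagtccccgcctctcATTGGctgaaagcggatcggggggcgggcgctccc
Idi1: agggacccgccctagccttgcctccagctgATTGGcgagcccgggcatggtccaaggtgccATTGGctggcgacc
Cyp51: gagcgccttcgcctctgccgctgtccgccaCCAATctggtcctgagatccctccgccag
Nsdhl: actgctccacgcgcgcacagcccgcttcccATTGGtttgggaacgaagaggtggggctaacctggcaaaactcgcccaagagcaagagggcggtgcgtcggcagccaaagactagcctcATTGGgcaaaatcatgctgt
Rdh11: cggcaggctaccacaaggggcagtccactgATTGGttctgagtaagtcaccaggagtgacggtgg

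The libraries were alike in size, with 11551524 to 12529963 counts of reads assigned to 1 gene (median 12005221), and 0 libraries went against their sex label. No 2 replicates agreed within counting noise, since the lowest chi-square per gene between them was 10.6 where counting alone gives 1. All 6 hepatocyte markers were detected in every liver. Of the 4 markers of steroid-making adrenal cells, another cell type rich in these enzymes, Cyp11b1 was at 0 in 70, Cyp11a1 in 53 and Hsd3b1 in 51 of the 72 livers, while Star was at 0 in 0 livers (lowest 0.24, mean 0.96 CPM). In whole tissue, fewer cells of a type and less RNA per cell cannot be told apart.

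Levels differed widely between members. Per kilobase of exon, the mean over the 72 livers was highest for Sc5d, the lathosterol desaturase, at 107 CPM per kb, where CPM are counts scaled to a common library total. Ebp, the sterol isomerase, followed at 84.1 CPM per kb, Tmem97, a membrane protein that binds Npc1, at 56.3, Hmgcs1 at 35.8 and Acat2, the cytosolic thiolase, at 34.2. Mvk (mevalonate kinase) at 2.97, Lbr (a sterol reductase that is also a nuclear lamina receptor) at 2.06 and Ggps1 (the branch to protein prenylation) at 1.97 CPM per kb were lowest. Sqle, the squalene epoxidase, ranged over the 72 livers from 1.99 to 120 CPM, a ratio of 60.3. The same ratio of the highest to the lowest liver was 18.8 for Mvd (mevalonate diphosphate decarboxylase), 17.6 for Fdps (farnesyl diphosphate synthase), 16.6 for Idi1, 13.2 for Rdh11 and 10.9 for Nsdhl, and it was smallest for Ggps1, at 1.94. Counts of Idi1, Fdps and Acat2 are uncertain, because the count version that keeps reads shared with other genes gave 3.74, 2.11 and 2.01 times as many reads; Tm7sf2 had 1.25 times as many and the other members at most 1.06 times.

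The members also varied between livers of the same group. Their SD of log2 CPM within a group had a median of 0.41, against 0.30 over all genes tested. Of the 27 members, 25 varied more than the median gene of like abundance, and 16 were in the top 10% of such genes. Much of this variation was shared. Over the 72 livers the median Pearson correlation of log2 CPM over the 190 pairs of enzymes was 0.60 (from -0.30 to 0.96), and after the group means were taken out it was 0.65. Fdps (r = 0.93), Idi1 (0.93), Lss (lanosterol synthase, 0.93), Nsdhl (0.92), Cyp51 (0.91) and Rdh11 (0.92) followed the mean of the other enzymes most closely. Ggps1 (r = -0.05), Npc1 (0.00), Mylip (-0.01), a ubiquitin ligase that marks lipoprotein receptors for breakdown, and Npc2 (0.07), the soluble lysosomal partner of Npc1, stood outside this shared variation, and so largely did Soat2 (0.27), the enzyme that esterifies cholesterol. These correlations are descriptions over livers that share library depth and preparation, and the mean of the 20 enzymes itself went with the library total (r = 0.72 over 72 livers, 0.69 within groups) and with the share of counts in the 20 highest genes (r = 0.61, and 0.47 within groups), a share that ran from 22.8% to 28.3%. The part of library size in the results was not tested beyond a fit with the total as a term, whose values are given where they differ.

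**Figure D1:**
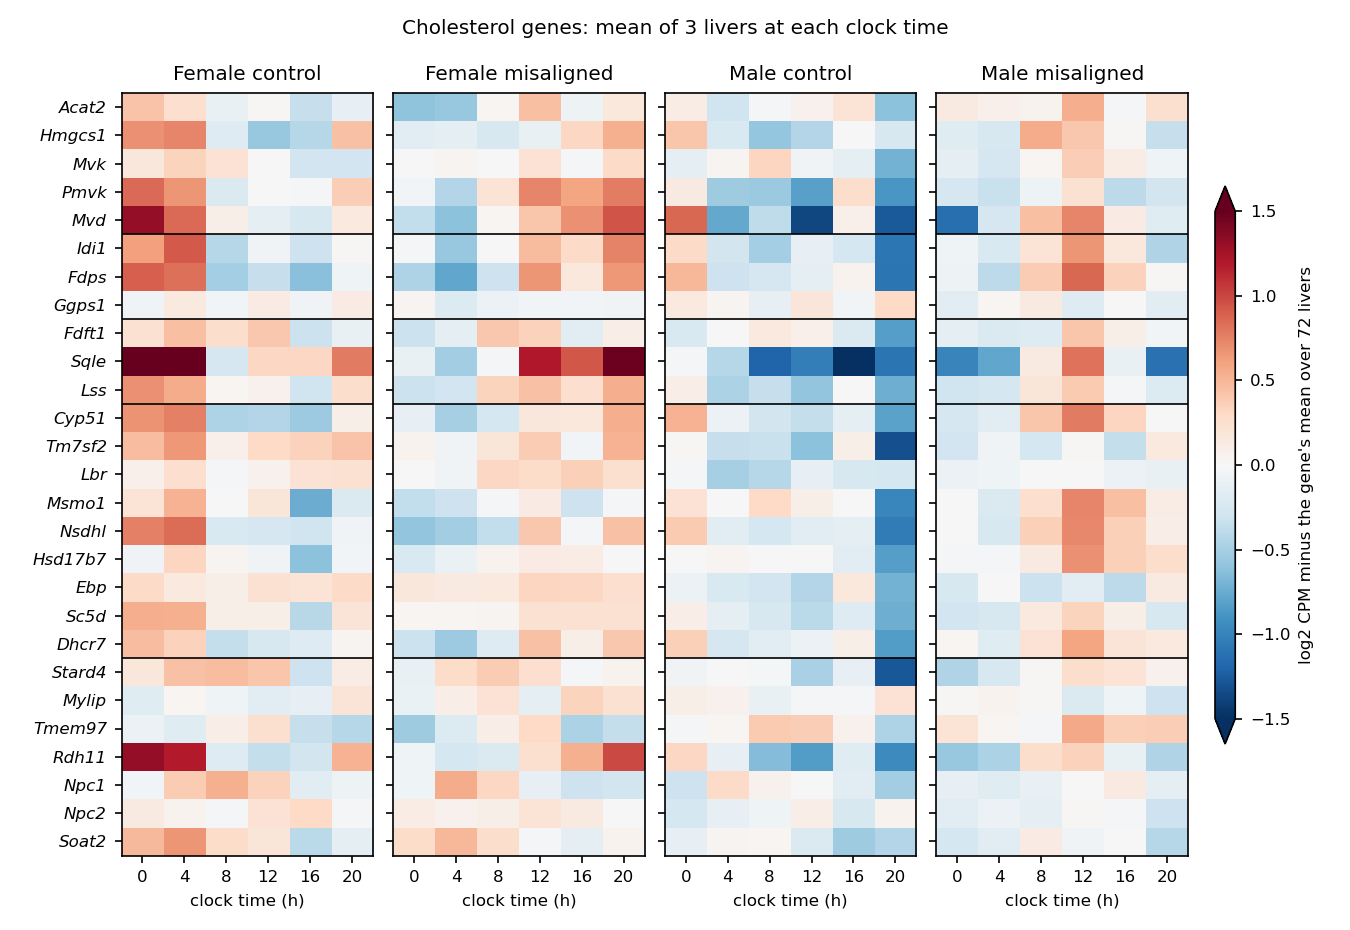
Mean of 3 livers of each gene (rows, in pathway order) at each clock time (columns, h) in the 4 groups of sex and treatment, as the difference in log2 CPM from the gene's mean over all 72 livers, with colours ending at -1.5 and 1.5. Most enzymes are red (above their mean) at 0 and 4 h in control females, at 12 and 20 h in misaligned females and at 12 h in misaligned males, and blue (below it) at 20 h in control males.

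In control females the chain had its high values around 0 to 4 h. A cosine of 24 h was fitted to each gene, which gives an amplitude (from mean to peak, in log2) and a peak time. Of the 27 members, 8 were rhythmic in control females at an adjusted p under 0.05, where 12% of all genes tested were (17 members had an unadjusted p under 0.05, against 25.8%). They were Soat2, Hmgcs1, Rdh11, Cyp51, Npc1, Nsdhl, Fdft1 (squalene synthase) and Fdps.

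Hmgcs1 had 184, 274 and 301 CPM in the 3 control females at 0 h and 212, 252 and 316 at 4 h. At 12 h it had 75.7, 111 and 135 CPM, so the livers of 0 and 4 h lay above all 3 of 12 h without overlap. The clock times set side by side here and below differ from gene to gene and were not fixed beforehand. The share of all genes whose livers separate so was not counted. For Hmgcs1 the fit gave an amplitude of 0.73 ± 0.13 (SE) with a peak at 0.873 ± 0.659 h and a peak to trough ratio of 2.74 (adjusted p = 0.000115). Cyp51 (0.74 ± 0.16, peak 1.48 ± 0.844 h, adjusted p = 0.0026), Rdh11 (0.95 ± 0.21, peak 1.09 ± 0.834 h, adjusted p = 0.00245), Nsdhl (0.62 ± 0.18, peak 1.80 ± 1.10 h, adjusted p = 0.031) and Fdps (0.77 ± 0.24, peak 1.92 ± 1.18 h, adjusted p = 0.0466) peaked within about an hour of it. Sqle had the largest fitted amplitude of the enzymes, 1.00 ± 0.32, but did not pass the test (adjusted p = 0.056), nor did Mvd (0.76 ± 0.27, adjusted p = 0.107), Idi1 (0.61 ± 0.21, adjusted p = 0.0787) or Dhcr7, the reductase of the last step (0.38 ± 0.17, adjusted p = 0.264). Ggps1 was nearly flat in the fit, at 0.01 ± 0.07. The count of 8 was 5 without the third control female of 4 h or without the first or the second of 16 h, and 13 without the third of 12 h.

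The fitted peaks of Soat2, Fdft1 and Npc1 came later. Soat2 had 58.1, 69.5 and 70.6 CPM in control females at 4 h and 30.2, 31.4 and 32.8 CPM at 16 h, with no overlap. Its amplitude was 0.47 ± 0.06 with a peak at 4.30 ± 0.491 h (adjusted p = 2.26e-07). Fdft1 ran from 96.2, 99.7 and 113 CPM at 12 h to 52.4, 65.5 and 69.5 CPM at 16 h, and its fitted peak was at 5.80 ± 1.08 h (amplitude 0.33 ± 0.09, adjusted p = 0.0415). Npc1, the lysosomal protein that hands cholesterol out to the cell, had 165, 177 and 190 CPM at 8 h and 103, 111 and 115 CPM at 16 h, again without overlap, with a peak at 7.66 ± 0.894 h (amplitude 0.36 ± 0.08, adjusted p = 0.00554).

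In control males, 5 members were rhythmic, where 10.8% of all genes tested were: Soat2 (amplitude 0.31 ± 0.06, peak 5.44 ± 0.762 h, adjusted p = 0.00133), Fdft1 (0.41 ± 0.09, 8.16 ± 0.872 h, adjusted p = 0.00782), Tmem97 (0.37 ± 0.09, 9.22 ± 0.906 h, adjusted p = 0.00904), Npc1 (0.32 ± 0.08, 7.46 ± 1.02 h, adjusted p = 0.0259) and Mvk (0.43 ± 0.12, 7.80 ± 1.12 h, adjusted p = 0.0443). Soat2 in control males was at 39.6, 41.6 and 47.9 CPM at 4 h and at 28.4, 28.6 and 29.3 CPM at 16 h, with no overlap. Hmgcs1 had 174, 217 and 234 CPM at 0 h and 90.9, 93.9 and 129 CPM at 8 h, and its fit (amplitude 0.36 ± 0.13) did not pass (adjusted p = 0.13). The difference between the sexes was itself tested, and edgeR called 0 of 27 members for a sex difference of rhythm in controls, with 1 at an unadjusted p under 0.05 against 4.91% of all genes; DESeq2 and limma-voom also called 0. Without the 20 h livers the count in control males was 2, and without any 1 of the control males of 20 h it was 3.

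The fitted peaks of the 20 enzymes lay close together in females and less so in control males. In control females their circular mean was 1.90 h with a concentration of 0.84 (where 1 means the same hour for all), and 15 of 20 peaks fell between 20 and 4 h. In control males the mean was 2.03 h, the concentration 0.36 and the median amplitude 0.20, against 0.43 in control females. There 12 of 20 peaks fell between 20 and 4 h. These summaries include the enzymes that did not pass the rhythm test. The enzymes varied together between livers, so their peaks are not independent.

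In misaligned females the enzymes were lower than in controls around 0 to 4 h and higher from 12 to 20 h. At 0 h 25 of the 27 members were lower, with a median log2 difference of -0.55, and at 4 h 24 were lower with a median of -0.71. At 16 h 23 were higher with a median of 0.29, and at 20 h 23 were higher with a median of 0.19. The median over all genes tested lay between -0.02 and 0.01 at the 6 times, where 46.4% to 52.7% of all genes were higher. Single times were not tested. The 20 enzymes' fitted peaks had a circular mean of 15.5 h (concentration 0.89). None of the 20 enzymes passed the rhythm test in misaligned females. The enzymes varied together between livers (median r of 0.65 over pairs within groups), so these peaks and the counts above are not independent. Of these peaks, 15 of 20 fell between 14 and 22 h and 13 of 20 between 8 and 16 h, windows that overlap.

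Hmgcs1 shows the move in single livers. Misaligned females had 104, 151 and 169 CPM at 0 h and 112, 148 and 161 CPM at 4 h, below all control females of those times (184 CPM and above). At 12 h they had 140, 143 and 148 CPM and at 16 h 144, 191 and 254 CPM, above all control females of those times (135 and 130 CPM at most). Its fitted peak moved from 0.873 to 18.5 ± 1.30 h while the amplitude went from 0.73 to 0.37 ± 0.13, a fit that did not pass the rhythm test by itself (adjusted p = 0.116). Hmgcs1 was the only member whose rhythm changed in females at an adjusted p under 0.05 (0.042), where 0.192% of all genes tested were called. At an unadjusted p under 0.05 there were 15 of 27 members, against 8.2% of all genes; the next were Cyp51 (adjusted p = 0.0668, fitted peak from 1.48 to 17.4 h) and Rdh11 (adjusted p = 0.0938, from 1.09 to 17.8 h). With the log2 library total as a term in the fit, 0 members were called and 6 had an unadjusted p under 0.05, while DESeq2 called 5. The call of Hmgcs1 was lost without any of 22 single libraries, and without the third control female of 12 h 6 members were called (Hmgcs1, Acat2, Fdps, Cyp51, Nsdhl and Rdh11).

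In misaligned females 3 members were rhythmic, where 7.69% of all genes were. Npc1 (amplitude 0.43 ± 0.08, peak 5.43 ± 0.75 h, adjusted p = 0.000755), Soat2 (0.31 ± 0.06, peak 3.79 ± 0.748 h, adjusted p = 0.000926) and Tmem97 (0.38 ± 0.09, peak 9.88 ± 0.883 h, adjusted p = 0.00634) passed the test. Their fitted peaks in control females were at 7.66, 4.30 and 8.76 ± 1.29 h, the last from a fit that did not pass (adjusted p = 0.094), and none of the 3 changed its rhythm at an adjusted p under 0.05. Soat2 in misaligned females had 51.5, 54.5 and 71.8 CPM at 4 h and 35.1, 38.2 and 39.2 CPM at 16 h, with no overlap. The number of members rhythmic in this group rested on few livers and was 5 without the 20 h livers, or without the third misaligned female of 16 h.

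**Figure D2:**
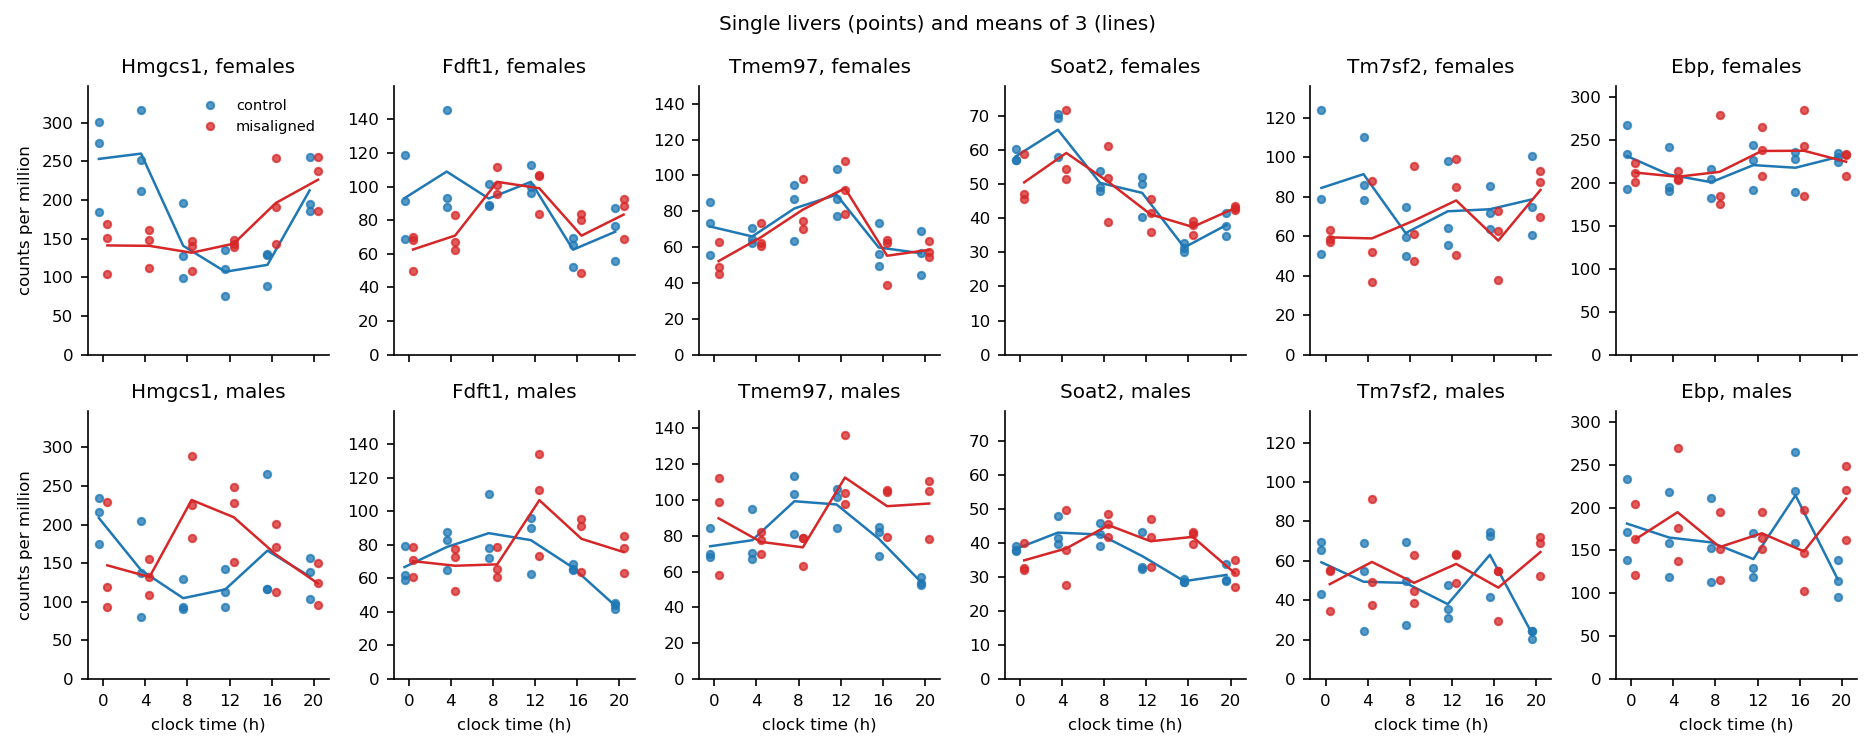
CPM (vertical axes, from 0) against clock time (h) for the 6 genes chosen by rule, females in the upper and males in the lower row, with each liver as a point and the mean of 3 as a line, controls and misaligned mice in their own colours. Control Hmgcs1 in females lies above misaligned Hmgcs1 at 0 and 4 h and below it at 12 and 16 h, and Tm7sf2, Ebp, Fdft1 and Tmem97 dip in control males at 20 h.

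In misaligned males the members were mostly higher than in control males from 8 to 20 h. At 0 h 21 of 27 were lower (median log2 difference -0.31) and at 4 h 17 were lower (-0.01). At 8 h 20 were higher (0.26), at 12 h 24 (0.67), at 16 h 21 (0.26) and at 20 h 22 (0.65). The medians over all genes tested lay between -0.01 and 0.01, and 48.7% to 52.3% of all genes were higher at the 6 times. Single times were not tested. The enzymes varied together between livers (median r of 0.65 over pairs within groups), so these counts are not made of independent members. Mvd had the lowest difference of the 27 members at 0 h and the highest at 12 h. Control males had 16.5, 17.2 and 26.7 CPM at 0 h, above the 2.93, 5.45 and 6.92 CPM of misaligned males, and 3.47, 4.08 and 4.74 CPM at 12 h, below their 12.8, 19.5 and 23.3 CPM. Its log2 differences at these times were -1.99 and 2.10.

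Whether the effect of misalignment differed between the 6 clock times was tested with 5 degrees of freedom. In males 7 of 27 members passed, where 9.26% of all genes tested did: Tmem97, Stard4 (a cytosolic sterol carrier), Hmgcs1, Mvd, Tm7sf2 (a sterol reductase), Ebp and Fdft1, with adjusted p from 0.0297 to 0.0497. In females edgeR called 0 of 27, where 0.0332% of all genes were called, with 12 members at an unadjusted p under 0.05 against 5.06% of all genes; DESeq2 and limma-voom called 0 as well. The male count was 0 without the livers of 20 h, and also without the second control male or the third misaligned male of that time alone.

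At 20 h control males were low in several members. Tm7sf2 had 20.2, 24.5 and 24.6 CPM in control males at 20 h, against 52.1, 69.2 and 72.1 CPM in misaligned males and 60.7, 74.6 and 101 CPM in control females. Tmem97 had 52.6, 53.4 and 57.0 CPM against 78.4, 105 and 111 CPM in misaligned males. Fdft1 had 41.9, 43.9 and 45.4 CPM against 63.4, 78.1 and 85.4 CPM, and Ebp 96.2, 115 and 139 CPM against 162, 221 and 249 CPM. In these 4 genes, all called in the test over clock times above, the 3 control males lay below the 3 misaligned males. The same livers entered that test. The clock time was not fixed beforehand, and the share of all genes that separate so was not counted. The mean of the 20 enzymes, taken per liver as the mean of gene-centred log2 CPM, was lowest of all 24 groups there, at -1.36, -0.59 and -0.41, and the first of these was the lowest of the 72 livers.

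By the cosine fit, 4 members changed their rhythm in males, where 9.23% of all genes did (13 had an unadjusted p under 0.05, against 24.1%). Hmgcs1 moved its fitted peak from 21.9 ± 1.32 to 10.2 ± 1.18 h (adjusted p = 0.00793) and Cyp51 from 1.70 to 12.1 ± 1.22 h (adjusted p = 0.0372). Tmem97 went from 9.22 to 16.3 ± 1.39 h (adjusted p = 0.0197) and Fdft1 from 8.16 to 13.9 ± 1.34 h (adjusted p = 0.0427). In males neither the control nor the misaligned fit of Hmgcs1 and Cyp51 passed the rhythm test by itself. The misaligned fits of Tmem97 (adjusted p = 0.582) and Fdft1 (adjusted p = 0.514) did not pass it either. Hmgcs1 in misaligned males had 182, 225 and 288 CPM at 8 h and 151, 228 and 249 CPM at 12 h, above all control males of those times (at most 129 and 142 CPM). At 0 h it had 93.0, 119 and 230 CPM, where the highest overlaps the 174, 217 and 234 CPM of control males. With the log2 library total as a term 10 members were called, and with only the male libraries in the fit 2 were. The count was 8 without the second control male of 16 h and 2 without the second misaligned male of 0 h, the third of 4 h or the second of 8 h.

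Within misaligned males 0 of 27 members were rhythmic by edgeR, and 1 gene of all tested (0.00664%). At an unadjusted p under 0.05 there were 8 members, against 7.85% of all genes, and DESeq2 and limma-voom called 0. Soat2, for which control males differed between 4 and 16 h without overlap, had 39.6, 42.6 and 43.2 CPM in misaligned males at 16 h. Its cosine fit in misaligned males (amplitude 0.22 ± 0.06) did not pass (adjusted p = 0.338). The test of a changed rhythm of Soat2 in males did not pass either (adjusted p = 0.0513). Of the 20 enzymes, 17 had their fitted peak between 8 and 16 h and 0 between 14 and 22 h, with a circular mean of 11.8 h. In misaligned females 13 of 20 fell between 8 and 16 h. Whether the change of rhythm differed between the sexes was tested as an interaction and called 0 members by edgeR, DESeq2 and limma-voom, where 1.73% of all genes were called by edgeR. At an unadjusted p under 0.05 there were 5 members, against 14.1% of all genes, the smallest being that of Hmgcs1 (adjusted p = 0.0962), and 1 member was called without the third misaligned male of 0 h.

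**Figure D3:**
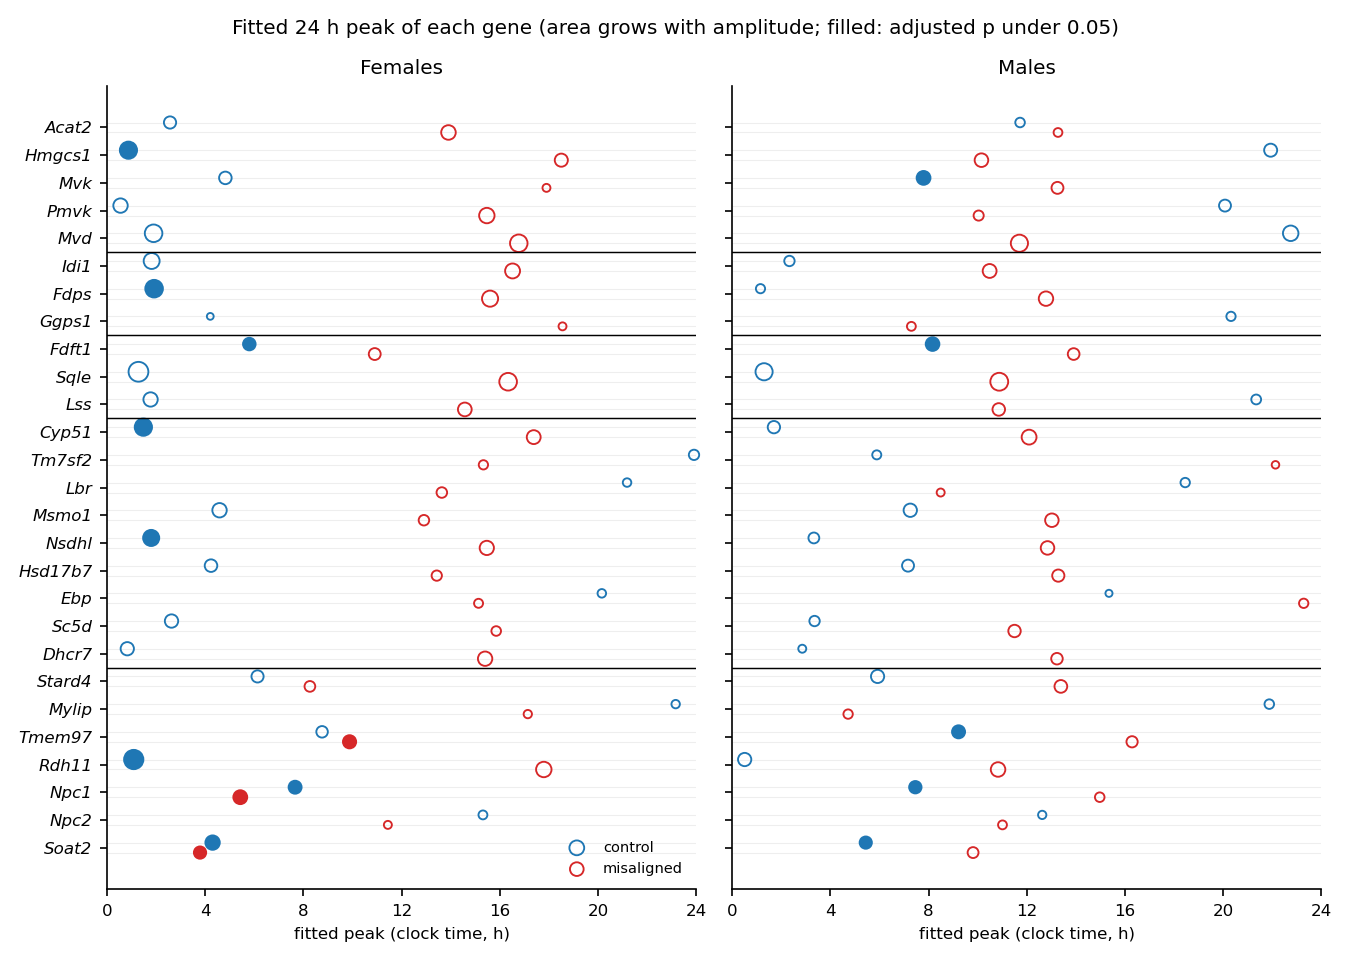
Fitted 24 h peak (clock time, h) of each gene (rows, in pathway order) in females and males, with controls and misaligned mice in their own colours, symbol area growing with the amplitude and filled symbols marking an adjusted p under 0.05. The enzymes' peaks lie around a circular mean of 1.90 h in control females, 15.5 h in misaligned females and 11.8 h in misaligned males. No symbol of misaligned males is filled, nor is that of any enzyme in misaligned females.

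Averaged over the 6 clock times, misalignment left no member called in either sex. In females 0 of 27 passed (0.00664% of all genes did), 0 had an unadjusted p under 0.05 against 6.68% of all genes, and the median log2 difference was -0.05. In males 0 passed (0% of all genes did), and 24 of 27 members were higher in misaligned mice. The median was 0.22, against 0.01 over all genes tested, of which 52.6% were higher. The enzymes varied together between livers (median r of 0.65 over pairs within groups), so such counts are not made of independent members. The control males of 20 h, low in several members, enter this mean. In males 10 members had an unadjusted p under 0.05, against 6.19% of all genes, among them Hsd17b7 (a sterol reductase; 0.38 ± 0.14, adjusted p = 0.753), Nsdhl (0.43 ± 0.18, adjusted p = 0.762) and Sqle (0.74 ± 0.37, adjusted p = 0.799). For the difference of the effect between the sexes 0 were called, with 7 at an unadjusted p under 0.05 against 5.7%. DESeq2 and limma-voom also called 0 in each of these comparisons.

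Control males had less transcript of much of the chain than control females. Averaged over the clock times, 14 of 27 members differed, where 32.9% of all genes tested did, and all 14 were lower in males, where 16% of all genes were called lower. The median log2 difference of the 27 members was -0.34, against -0.01 over all genes, and 24 of 27 were negative. The 14 came from the mevalonate steps (Pmvk, the phosphomevalonate kinase, and Mvd), from squalene and lanosterol (Fdft1, Sqle, Lss), from the steps to cholesterol (Tm7sf2, Lbr, Ebp, Sc5d) and from transport and storage (Stard4, Npc1, Npc2, Soat2), with Rdh11 beside them. The isoprenoid enzymes Idi1 (-0.47 ± 0.21, adjusted p = 0.0785), Fdps and Ggps1 did not pass.

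Sqle had 5.23, 22.5 and 120 CPM (lowest, median and highest of 18) in control females and 1.99, 6.89 and 33.7 CPM in control males. The ranges overlap. Sqle was lower in males by a log2 difference of -1.74 ± 0.36 (adjusted p = 0.000154) and at 6 of 6 clock times, by -2.10 to -0.95. Tm7sf2 had 50.1, 74.9 and 124 CPM in control females and 20.2, 45.4 and 74.8 CPM in control males, a difference of -0.78 ± 0.14 (adjusted p = 2.23e-05) seen at 6 of 6 times.

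Soat2 had the smallest p of the members. It had 30.2, 49.6 and 70.6 CPM in control females and 28.4, 37.9 and 47.9 CPM in control males, a difference of -0.38 ± 0.06 (adjusted p = 8.27e-07). Ebp had 182, 225 and 268 CPM in control females and 96.2, 156 and 265 CPM in control males (-0.45 ± 0.10, adjusted p = 0.000207), and Fdft1 52.4, 88.7 and 145 CPM against 41.9, 66.9 and 110 CPM (-0.34 ± 0.09, adjusted p = 0.0018). Soat2, Ebp, Lbr and Npc1 were lower in males at 6 of 6 times and Fdft1 at 5. In all these pairs the ranges of the 18 livers overlapped.

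The remaining members called were Mvd (-0.88 ± 0.27), Rdh11 (-0.74 ± 0.21), Pmvk (-0.69 ± 0.19), Lss (-0.54 ± 0.18), Stard4 (-0.48 ± 0.13), Sc5d (-0.41 ± 0.13), Lbr (-0.40 ± 0.09), Npc1 (-0.27 ± 0.09) and Npc2 (-0.19 ± 0.07), with adjusted p from 0.00044 to 0.0297. Of the 13 others, Idi1 was nearest the threshold, followed by Hmgcs1 (-0.27 ± 0.13, adjusted p = 0.0888), Nsdhl (-0.39 ± 0.18, adjusted p = 0.0905) and Tmem97 (0.17 ± 0.08, adjusted p = 0.0973). The summed hepatocyte markers were also lower in males, with 85118, 106337 and 119060 CPM (lowest, median and highest) in control females and 69131, 80056 and 111309 CPM in control males. The summed Kupffer cell markers had medians of 540 CPM in control females and 386 in control males, the endothelial markers 232 and 193, and the stellate cell markers 351 and 479. The part of these differences in that of the members was not tested. Without the 20 h livers 9 members passed, and leaving out any single library gave 13 to 16.

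**Figure D4:**
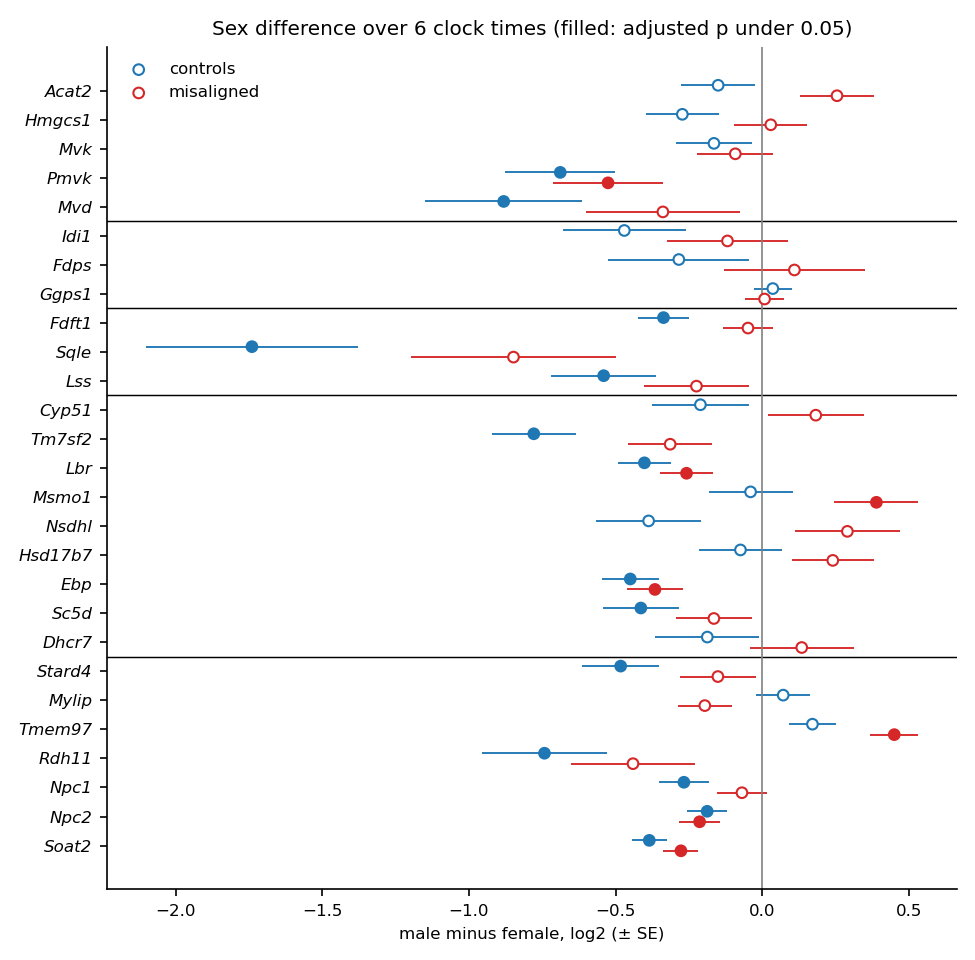
Male minus female log2 difference over the 6 clock times with its SE (horizontal axis) for each gene (rows, in pathway order), in control and in misaligned mice, filled where the adjusted p was under 0.05. In controls 24 of 27 points lie left of 0, down to -1.74 for Sqle, while in misaligned mice Tmem97 and Msmo1 are filled to the right of 0.

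In misaligned mice 7 members differed between the sexes, where 37.7% of all genes did (12 had an unadjusted p under 0.05, against 45.5%). Of these, 5 were lower in males and 2 higher, where 17.8% and 19.9% of all genes were. The lower ones were Soat2 (-0.28 ± 0.06), Ebp (-0.37 ± 0.10), Pmvk (-0.53 ± 0.19), Lbr (-0.26 ± 0.09) and Npc2 (-0.21 ± 0.07). The higher ones were Msmo1, an oxidase that helps to remove methyl groups (0.39 ± 0.14, adjusted p = 0.0268), and Tmem97. Tmem97 had 38.9, 63.0 and 108 CPM in misaligned females and 58.1, 90.0 and 136 CPM in misaligned males (0.45 ± 0.08, adjusted p = 1.03e-05), and in controls 44.4, 69.8 and 103 CPM against 52.6, 81.5 and 113 CPM. Soat2 had 35.1, 44.6 and 71.8 CPM in misaligned females and 27.1, 39.8 and 49.6 CPM in misaligned males. Sqle missed the threshold at -0.85 ± 0.35 (adjusted p = 0.0501). With the log2 library total as a term 11 members were called. The change of the sex difference with misalignment is the interaction given above, which called no member, and the 2 sex comparisons share no livers. The sex difference in controls and the effects of misalignment do share the control livers, so a low control male group enters both.

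Each liver was also given a molecular time, read from 14 of 19 core clock genes that were rhythmic in both control groups, against the control curve of the same sex. The members played no part in this reading. In control males the molecular time was within 2.34 h of the stated clock time, with a median absolute offset of 0.711 h, and in control females it was within 2.56 h. In misaligned females the median absolute offset was 2.17 h (0.204 to 5.82 h), and in misaligned males 6.01 h (1.08 to 12.0 h).

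Ordered by molecular time, 5 of 27 members were rhythmic in the 18 misaligned males, where 9.53% of all genes tested were. Ordered by clock time in the same 18 livers, 0 were by edgeR or limma-voom (0% of all genes by edgeR). Soat2 had the best fit by molecular time (share of variance R2 = 0.73, adjusted p = 0.00176, peak 2.09 h), then Npc1 (0.61, adjusted p = 0.00612, peak 7.02 h), Tmem97 (0.58, adjusted p = 0.0112, peak 10.6 h), Stard4 (0.50, adjusted p = 0.031, peak 7.30 h) and Hmgcs1 (0.44, adjusted p = 0.0468, peak 0.572 h). Of these 5, 4 are genes of transport or esterification and 1, Hmgcs1, is an enzyme of the mevalonate steps.

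Of the 20 enzymes, 12 had the higher R2 by clock time and 8 by molecular time, and the difference was not tested. Mvd had an R2 of 0.49 by clock time and 0.06 by molecular time, Cyp51 0.44 and 0.20, Fdps 0.32 and 0.03, and Lss 0.30 and 0.02. Ebp had 0.05 by clock time and 0.37 by molecular time, and Acat2 had 0.04 and 0.22. At an unadjusted p under 0.05 there were 14 members by clock time (5.18% of all genes) and 9 by molecular time (28% of all genes). The median R2 of the members was 0.30 by clock time and 0.22 by molecular time, where all genes had 0.10 and 0.20. A higher R2 by molecular time was found for 13 of 27 members and for 73.9% of all genes. Leaving out replicate 1, 2 or 3 of every group left 1 to 4 of the 5 calls in number.

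**Figure D5:**
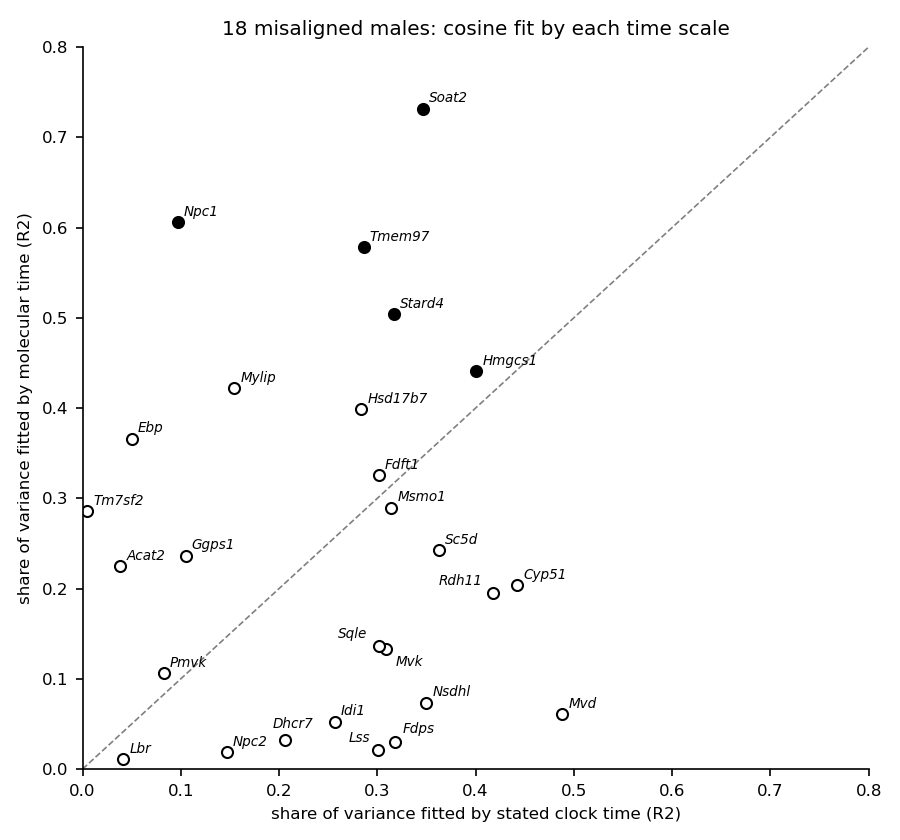
Share of variance (R2) fitted in the 18 misaligned males by a cosine of molecular time (vertical axis) against that by a cosine of the stated clock time (horizontal axis), 1 point per gene, with the dashed line marking equal shares. Soat2, Npc1, Tmem97 and Stard4 lie above the line, with R2 by molecular time of 0.50 to 0.73, and Mvd (0.49 by clock time) lies far below it.

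Reads within introns can come from unspliced transcripts and give another readout of the same genes. The libraries were poly(A) selected, and the origin of these reads was not tested. Intron counts were low, with 542193 to 577742 per library in all and medians from 3 (Hsd17b7 and Stard4) to 228.5 (Soat2) per liver among the members, and 26 members (all but Stard4) were among the 9791 genes tested. Of them, 9 were lower in control males than in control females, where 15.9% of all genes differed and 7.8% were lower: Sqle (-1.98 ± 0.41, adjusted p = 0.000215), Mvd (-1.14 ± 0.33), Pmvk (-0.81 ± 0.26), Lss (-0.66 ± 0.23), Nsdhl (-0.58 ± 0.19), Tm7sf2 (-0.57 ± 0.18), Sc5d (-0.49 ± 0.13), Fdft1 (-0.41 ± 0.13) and Ebp (-0.38 ± 0.11). Of these, 8 were also called on the gene counts of the same libraries, Nsdhl being the exception. Without replicate 1 or without replicate 3 of every group, 2 of the 9 were left in number.

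Introns of 5 members were rhythmic in control females, where 4.61% of all genes were: Soat2 (adjusted p = 1.10e-05), Cyp51 (0.00599), Rdh11 (0.0106), Idi1 (0.0137) and Hmgcs1 (0.0209). Fitted on log2 CPM, the intron peak of Soat2 was at 1.26 h and that of its gene counts at 4.25 h. The pairs were 1.77 and 0.798 h for Hmgcs1 and 2.39 and 1.17 h for Cyp51. The difference between readouts was not tested. Soat2 had 118 to 484 intron counts per liver against 283 to 930 gene counts, and the 2 readouts had r = 0.61 over the 72 livers. In control males 0 of 26 passed by edgeR or limma-voom (2.88% of all genes did, 4 members had an unadjusted p under 0.05), and for the change of rhythm in males edgeR called 0 (2.06%; 3 members were at an unadjusted p under 0.05) and limma-voom 1. In misaligned mice the introns of Ebp (-0.36 ± 0.11, adjusted p = 0.0134) and Soat2 (-0.35 ± 0.11, adjusted p = 0.0164) were lower in males, 2 of 26 where 18.7% of all genes differed and 9.04% were lower, and without replicate 2 of every group 0 passed. For the change of rhythm in females 0 passed by edgeR or limma-voom, as for 0% of all genes. At an unadjusted p under 0.05 there were 15 of 26 by edgeR, where 6.13% of all genes were, and 14 by limma-voom; without replicate 1 or 2 of every group there were 6 and 8. The lowest p was that of Rdh11 (adjusted p = 0.162), which Hmgcs1, Idi1 and Cyp51 shared after adjustment. Npc1 was the 1 member with rhythmic introns in misaligned females (adjusted p = 0.0248; 2.53% of all genes), and 0 passed there without replicate 1 or without replicate 3. In misaligned males 0 of 26 passed by edgeR or limma-voom, as for 0% of all genes. By edgeR 6 were at an unadjusted p under 0.05, and by limma-voom 3. For intron rhythm in control and misaligned males and its change, the share of all genes at an unadjusted p under 0.05 was not counted. These counts of members at an unadjusted p therefore say nothing about the members as a set. Over the 72 livers, intron and gene levels of the same member had r = 0.94 for Sc5d, 0.93 for Fdps, 0.90 for Sqle and 0.85 for Hmgcs1, but 0.18 for Ggps1 and 0.24 for Lbr, as descriptions over the same libraries.

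Genes around the chain were counted from lists that follow the pathway. Of 9 genes of sterol sensing, 7 differed between control males and females, where 32.9% of all genes did. Of these, 6 were lower in males: Srebf2 (-0.43 ± 0.06, adjusted p = 5.72e-08), Scap (-0.41 ± 0.08), Insig1 (-0.68 ± 0.17), Srebf1 (-0.57 ± 0.16), which drives fatty acid synthesis, and the oxysterol receptors Nr1h2 and Nr1h3. Insig2, the form of Insig that does not need SREBP, was higher (0.69 ± 0.11, adjusted p = 2.68e-06). In misaligned mice 7 of the 9 differed, where 37.7% of all genes did, with 2 higher and 5 lower in males. Insig1 was not among them (adjusted p = 0.326), and Mbtps2, a protease that frees SREBP, was (0.36 ± 0.10, adjusted p = 0.00476). Insig2 was the 1 gene of this list whose rhythm changed with misalignment in both sexes (adjusted p = 0.042 in females and 4.45e-05 in males, where 0.192% and 9.23% of all genes were called).

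The counts of the other 3 lists stand against 32.9% of all genes called for the sex difference in controls (17% higher and 16% lower in males) and 9.23% called for the changed rhythm in males. Of 8 genes of acetyl-CoA and electron supply, 3 differed between control males and females, with Acss2 (acetyl-CoA synthetase, -0.95 ± 0.28) and Por (the electron donor of Cyp51 and Sqle, -0.59 ± 0.15) lower and Pgrmc1 (0.34 ± 0.06) higher in males. Por changed its rhythm in males (adjusted p = 2.04e-06). Of 7 genes of sterol export and removal, 2 were higher in control males, Cyp8b1 (a bile acid enzyme, 1.11 ± 0.18) and Abca1 (0.25 ± 0.08), and Cyp7a1, the rate-limiting enzyme of bile acid synthesis, changed its rhythm in males (adjusted p = 0.0168). Of 11 genes of uptake and hydrolysis, 2 were lower (Lrp1, -0.37 ± 0.08, and Lrpap1, -0.51 ± 0.07) and 1 higher (Lipa, the lysosomal lipase, 0.26 ± 0.06) in control males, and Gramd1b and Osbp, both sterol transfer proteins, changed their rhythm in males (adjusted p = 0.00239 and 0.00209). In each of the 4 lists 0 genes had a mean effect of misalignment by edgeR in either sex.

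Genes outside the list were ranked if they had a mean of at least 2 CPM and no symbol of a predicted gene or pseudogene (Gm number, Rik or -ps). Of these, the ones whose log2 CPM went most closely with the mean of the 20 enzymes over the 72 livers were Chrna4 (r = 0.93), a nicotinic receptor subunit that ranged from 0 to 199 CPM, Acss2 (0.93), Acacb (0.87), Acly (0.86), Dlat (0.85), Acsl5 (0.85), Pnpla5 (0.84) and Me1 (0.83). Acss2, Acly and Me1 supply acetyl-CoA or NADPH and Acacb makes malonyl-CoA. This is a ranking over libraries that share depth and preparation, with no test.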

How the data were processed

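The authors deposited whole-number counts of reads per gene and per intron, in the sense direction, for all 72 libraries. Per the labels' protocols the libraries were poly(A) selected, stranded and sequenced as read pairs, and per the submitters' processing notes STAR 2.6.0c and the build GRCm38 were used. The deposited counts come in a version restricted to unambiguous reads, which was used here, and a version that adds ambiguous ones. Columns were matched to samples by sex, treatment, time and replicate number, with 0 left over.

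Genes were kept by filterByExpr and fitted with edgeR 4.0.16 (TMM, robust quasi-likelihood) with 24 group means (48 residual degrees of freedom), or with a 24 h cosine curve for each of the 4 combinations of sex and treatment (60). P-values were 2-sided and adjusted by Benjamini and Hochberg over all genes of a test, with a threshold of 0.05. CPM uses TMM-scaled totals, and log2 CPM a prior count of 2. The mean of the 20 enzymes averages log2 CPM centred per gene. Exonic lengths came from the GENCODE annotation of GRCm38. Introns were summed per gene, keeping the shorter of overlapping ones. The scripts were tested on simulated data.

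Members and lists were chosen with earlier results of these data known. Values in single livers are given for the member with the smallest p in each of 6 tests (a repeat going to the next), and, chosen after their values were seen, for Mvd, Sqle and Npc1. The replicate numbers did not pair the livers. Alternatives were DESeq2 1.42.0 and limma-voom 3.58.1, other scalings and filters, the ambiguous reads, a replicate block, fewer libraries, and, chosen after seeing the data, an older dispersion estimate, the library total as a term a fit without the 20 h livers, and the alternatives for the intron comparisons beyond control mice and the changed rhythm in males. Exon, junction, intergenic and antisense counts were not used here.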

Additional observations from a re-analysis of the deposited data

Results flagged for a closer look

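For 2 genes around the chain, the change of rhythm with misalignment differed between the sexes by the interaction test, which none of the 27 members passed. For Insig2, which holds the SREBP escort in the endoplasmic reticulum, the adjusted p was 0.00166. For Por, which passes electrons to Cyp51 and Sqle, it was 0.00183. Single outlying livers were not tested within groups of 3.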

How the results depend on the processing

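The counts of 0 for a mean effect of misalignment (either sex, or between them), for time-dependent effects in females, for rhythm in misaligned males by clock time, for a sex difference of rhythm and for intron rhythm in control or misaligned males and for a change of intron rhythm in females held under each alternative run for them. Single members were followed only in 104 results chosen by their p, of which 71 were called. The others were differences with a sign at an unadjusted p under 0.05. Of 6755 values of these results under an alternative, 6195 stayed on their side of the threshold, 503 lost and 57 gained a call. Of the 6755 values, 4226 were differences with a sign, and 0 of them changed direction. For most results the alternatives mainly left out a single library. With results so chosen, this left little room for a change of direction. The counts do not describe the members that were not followed.

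Counts moved by more than 1.5 times were as follows. The sex difference in controls (14) gave 9 without the 20 h livers and 8 to 16 when replicates or libraries were left out; that in misaligned mice (7) gave 11 with the library total as a term and 3 to 9. Time-dependent effects in males (7) gave 1 without a filter or with only the libraries compared, 3 with limma-voom, 4 with a replicate block or the older dispersion estimate, 0 without the 20 h livers and 0 to 8 when replicates or libraries were left out, with 37 single libraries moving it. Rhythm in control females (8) gave 5 without a filter and 2 to 13. Rhythm in misaligned females (3) gave 5 without the 20 h livers and 1 to 5. Rhythm in control males (5) gave 3 with only the libraries compared, 2 without the 20 h livers and 1 to 7. The changed rhythm in females (1) gave 2 with total counts or a mean of at least 5 CPM, 5 with DESeq2, and 0 without a filter, with the ambiguous reads, with the library total or without the 20 h livers, and 0 to 6 over left-out livers, 30 libraries moving it. The changed rhythm in males (4) gave 2 without a filter or with only the libraries compared, 10 with the library total and 0 to 8; its difference between the sexes (0) gave 0 to 1. Molecular time (5) gave 1 to 4, introns by sex (9) gave 2 to 9, introns in control females (5) gave 1 to 3, introns by sex in misaligned mice (2) gave 0 to 3, introns in misaligned females (1) gave 0 to 1, and introns for the changed rhythm in males (0) gave 1 with total counts, limma-voom or the ambiguous reads. The causes were not tested.

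Same-numbered control and misaligned livers did not deviate together (r over 0.1 in 9 of 36 pairs, from -0.47 to 0.45), so the replicate block, which moved no other count by over 1.5 times, uses shared numbers only. The sex difference of Soat2, Sqle, Tm7sf2, Ebp, Lbr and Fdft1 in controls was called under every alternative run, as was the rhythm of Soat2 and Hmgcs1 in control females.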
